A study of Homo sapiens with 6 samples.

Results

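The expression of 10 genes of the bone morphogenetic protein (BMP) pathway was examined in human embryonic stem cells with and without SNAI1 at day 2 of hematopoietic differentiation. The set was given by name and held 3 ligand genes (BMP2, BMP4 and BMP7) and 7 genes that respond to BMP signaling (ID1, ID2, ID3, ID4, BAMBI, MSX1 and MSX2). These were 10 of the 37803 gene symbols found once in both deposited tables, and all 10 were among the 13909 genes that passed a filter on low values (an FPKM averaging 1 or more across the libraries). FPKM divides the sequenced fragments of a gene by its length and by the size of the library, so that levels of different genes can be set beside each other.

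H1 is an established human embryonic stem cell line, and SNAI1 encodes a transcriptional repressor of epithelial genes. All 6 libraries came from H1 cells after 2 days in custom mTeSR1 medium with activin A and BMP4, so WT and knockout cells alike were given BMP4 protein from outside. The labels give 50 ng/ml of BMP4 with 40 ng/ml of activin A, while in the methods the amounts are exchanged. There were 2 libraries of wild-type cells (WT) and 4 of cells with SNAI1 deleted, whose titles begin with different numbers and were taken as the groups SNAI1_KO_1 and SNAI1_KO_2 (n = 2 each). The study made its knockouts with CRISPR/Cas9 as frameshift lines, a pair of lines per gene, and a line that is 1 clone can carry changes of its own. No label says that the samples of a group were separate cultures, so the p-values measure only the spread between these libraries, which may be technical.

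BMPs are secreted ligands that bind a complex of type I and type II receptor kinases, and the receptors then phosphorylate SMAD1, SMAD5 and SMAD9, which enter the nucleus with SMAD4. The ID genes are among the most direct targets, and their products bind E proteins and keep them from DNA. The pathway also makes its own brakes, such as the inhibitory SMADs, the pseudoreceptor BAMBI and the secreted antagonist noggin. In the embryo BMP signaling patterns the primitive streak and the mesoderm, and BMP4 is a standard component of media that turn pluripotent cells into mesoderm.

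Each of the 2 tables held 1 library of every group. The first had 38100 gene rows and the second 58324, and the sources used here do not say why. Knockout and WT libraries were therefore compared within a table and fitted with the table as a block. SNAI1 mRNA was 37.1 FPKM in WT of the first table, beside 51.6 for SNAI1_KO_1 and 68.6 for SNAI1_KO_2, and 36.4 in that of the second, beside 47.8 and 55.0. The transcript was thus higher in the knockout libraries (log2 difference 0.58 ± 0.074, SE; limma, adjusted p = 0.00461), and a frameshift need not lower an mRNA, so this level does not check the labels. Depth is unknown as a count of reads, but the steps between low FPKM values put each knockout library at 0.876 to 1.11 times the depth of the WT library of its table.

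Of the 10 genes, 8 differed between the knockout groups and WT at an adjusted p under 0.05 (limma on log2(FPKM + 1), Benjamini-Hochberg over all genes tested), against 31.3% of all genes tested. The genes that rose were BMP7, ID1, ID2, ID3, ID4 and MSX2, which is 6 of 10 against 15.8% of all genes. BMP2 and BMP4 fell, which is 2 of 10 against 15.4%. BAMBI and MSX1 did not pass. In bulk RNA such as this, fewer cells of a type and less RNA per cell cannot be told apart. The ligand genes had a median log2 difference of -0.66 and the response genes one of 0.60, beside a median of -0.05 over all genes tested. The set was named with earlier results of these data known, so its share of calls is a description and not a test of the pathway.

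**Figure D1:**
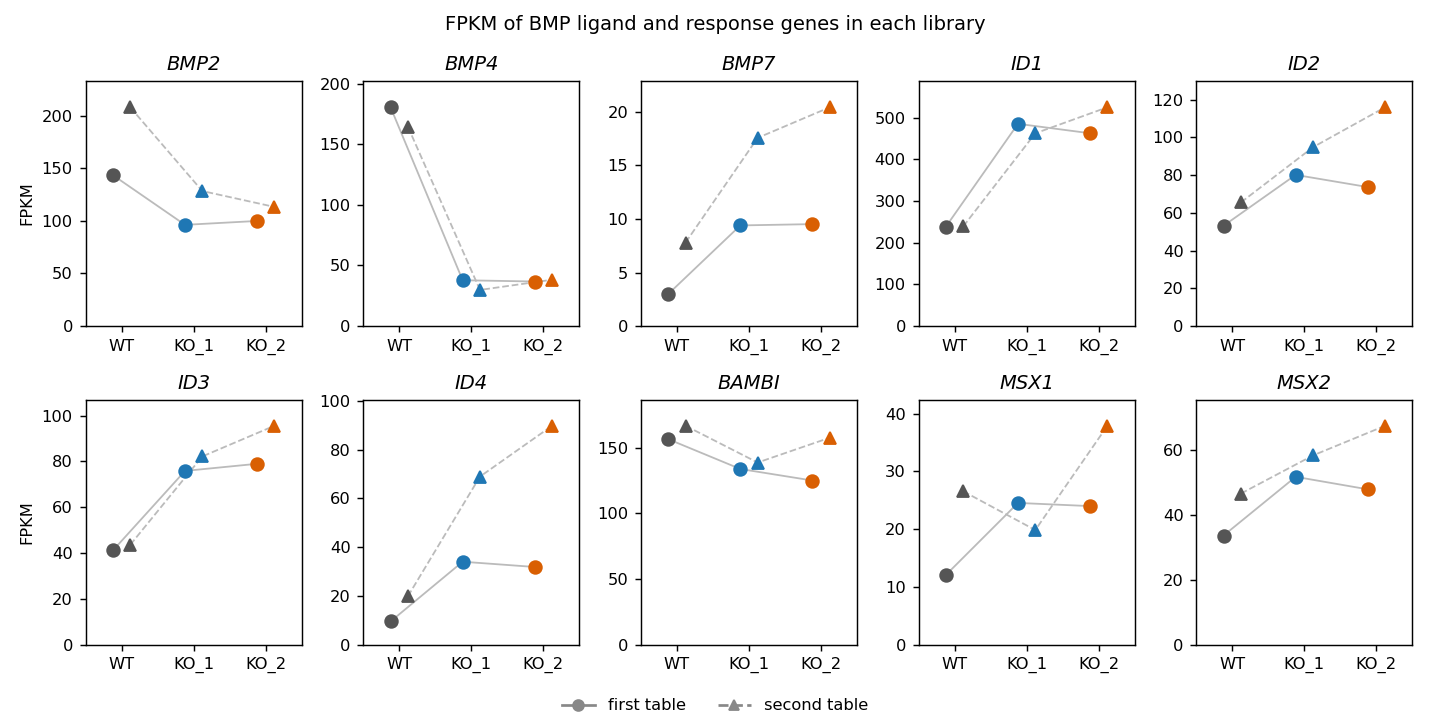
FPKM of the 10 BMP genes in each of the 6 libraries, 1 panel per gene with a linear axis from 0; points are single libraries of WT (grey), SNAI1_KO_1 (KO_1, blue) and SNAI1_KO_2 (KO_2, orange), circles for the first table and triangles for the second, with lines joining the libraries of a table. BMP4 lies between 29.8 and 38.2 in the knockout libraries against 164.5 and 180.5 in WT, while ID1 lies between 462.8 and 525.3 against 238.6 and 239.1.

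BMP4, the ligand that was also supplied in the medium, showed the largest difference of the 10 genes. Its mRNA was 180.5 FPKM (WT), 37.8 (SNAI1_KO_1) and 36.7 (SNAI1_KO_2) among the libraries of the first table and 164.5, 29.8 and 38.2 among those of the second. The 4 knockout libraries lay far below both WT libraries, at 0.181 to 0.232 times the WT level of the same table. The log2 difference was -2.25 ± 0.087 (SE; 95% interval -2.47 to -2.03; limma, adjusted p = 0.000194), a level 4.76-fold lower on the log2(FPKM + 1) scale. BMP4 ranked 443 and 515 by FPKM among all symbols in the WT libraries and between 2458 and 3236 in the knockout libraries.

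BMP2, a ligand of the same subgroup as BMP4, moved in the same direction by less. It was measured at 143.4 FPKM in WT of the first table, beside 96.2 for SNAI1_KO_1 and 99.8 for SNAI1_KO_2, and at 207.9 in that of the second, beside 128.3 and 113.2. Every knockout library was below both WT libraries, with a log2 difference of -0.66 ± 0.079 (SE; limma, adjusted p = 0.00352). Fitted without the table as a block, BMP2 was no longer called (limma, adjusted p = 0.143).

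BMP7, which belongs to another subgroup of BMP ligands, went the other way from a low level. It stood at 2.99 FPKM (WT), 9.40 (SNAI1_KO_1) and 9.52 (SNAI1_KO_2) among the libraries of the first table and at 7.79, 17.6 and 20.4 among those of the second. The knockout libraries were all above both WT libraries, at 2.26 to 3.19 times the WT level of their table. On the log2 scale the difference was 1.29 ± 0.096 (SE; 95% interval 1.04 to 1.53; limma, adjusted p = 0.000858), and it was not called without the block (limma, adjusted p = 0.196). An antisense gene, BMP7-AS1, overlaps BMP7, and the library kit does not mark strand, so reads of sequence they share cannot be told apart by strand. BMP7-AS1 was not among the symbols found once in both tables, so its level is not given.

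Together the 3 ligand genes summed to 326.9 and 380.3 FPKM in the WT libraries and to between 143.3 and 175.7 in the knockout libraries. BMP4 made up 55.2% and 43.3% of this sum in WT and 16.95% to 26.4% in the knockout libraries. BMP2 took the larger share there, 65.9% to 73.1% against 43.9% and 54.7% in WT. BMP7 was 0.914% and 2.05% of the sum in WT and between 6.52% and 11.9% in the knockout libraries. The ratio of BMP4 to BMP2 mRNA, a measure chosen after the values were seen, was 1.26 and 0.791 in WT and 0.232 to 0.393 in the knockout libraries. These shares describe mRNA made by the cells and not the BMP4 protein in the medium.

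**Figure D2:**
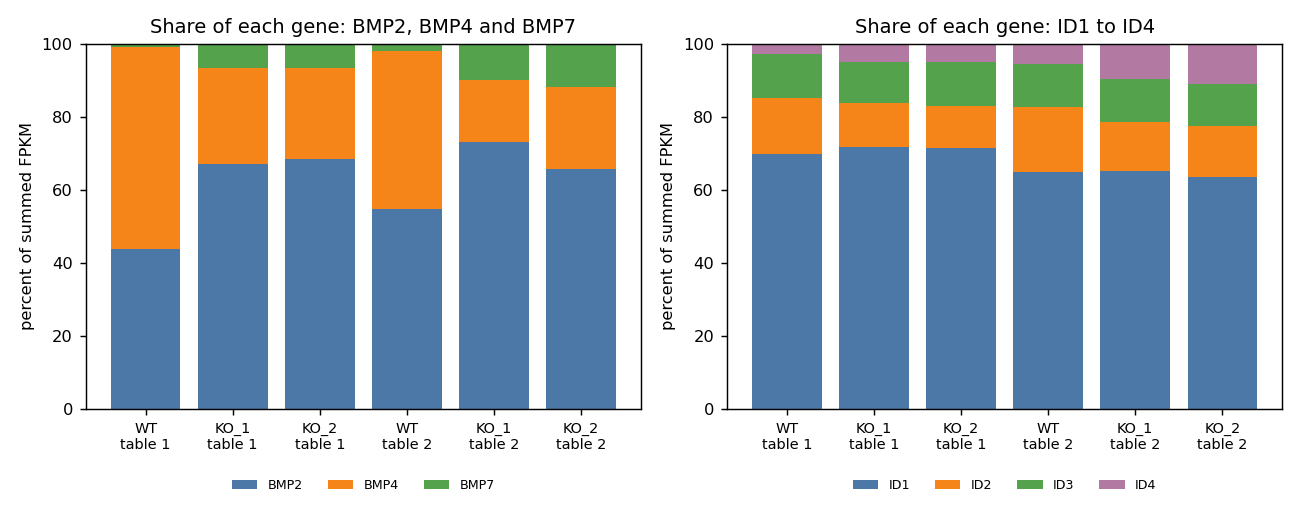
Shares of the summed FPKM taken by each BMP ligand gene and by each ID gene, as stacked bars from 0 to 100%, 1 bar per library. The BMP4 share is 55.2% and 43.3% in WT and at most 26.4% in the knockout libraries, while ID1 holds 63.6% to 71.9% of the ID sum in all 6.

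The ID genes encode helix-loop-helix proteins with no DNA-binding region, which pair with E proteins, and all 4 rose in the knockout groups. ID1 was the most abundant of the 10 genes in every library. It reached 238.6 FPKM in WT of the first table, beside 485.6 for SNAI1_KO_1 and 462.9 for SNAI1_KO_2, and 239.1 in that of the second, beside 462.8 and 525.3. The WT libraries nearly coincided and the knockout libraries stood at 1.94 to 2.20 times their level. The log2 difference of ID1 was 1.01 ± 0.060 (SE; 95% interval 0.86 to 1.16; limma, adjusted p = 0.000444). Its rank among all symbols was 323 and 342 in WT and 163 to 177 in the knockout libraries.

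ID3 followed ID1 closely in size. Its values were 41.1 FPKM (WT), 75.8 (SNAI1_KO_1) and 78.9 (SNAI1_KO_2) among the libraries of the first table and 43.5, 82.1 and 95.5 among those of the second, with no overlap between knockout and WT libraries. The log2 difference was 0.95 ± 0.060 (SE; limma, adjusted p = 0.000567). BMP4, ID1 and ID3 were the genes of the set still called without the block (limma, adjusted p = 0.00263, 0.00945 and 0.0164).

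ID4 had the largest relative rise of the family from its lowest level. It was 9.46 FPKM in WT of the first table, beside 34.0 for SNAI1_KO_1 and 31.9 for SNAI1_KO_2, and 19.8 in that of the second, beside 69.0 and 89.8. The level of ID4 differed between the tables in every group, yet within each table the knockout libraries stood at 3.37 to 4.54 times WT. The log2 difference was 1.82 ± 0.116 (SE; 95% interval 1.52 to 2.11; limma, adjusted p = 0.000576), with an adjusted p of 0.123 in limma without the block. AL022068.1, an antisense gene over ID4, stayed between 0.0253 and 1.98 FPKM.

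ID2 showed the smallest rise of the family. The first table gave 53.1 FPKM for WT, 80.1 for SNAI1_KO_1 and 73.6 for SNAI1_KO_2, and the second gave 65.5, 94.7 and 115.9. The lowest knockout library was above the higher WT library, and the log2 difference was 0.60 ± 0.094 (SE; limma, adjusted p = 0.00855). ID2 lost its call when either WT library was left out (limma, adjusted p = 0.0609 without that of the first table and 0.095 without that of the second) and without the block (limma, adjusted p = 0.208). ID2-AS1, which overlaps ID2 and whose reads cannot be told apart from it by strand, rose from 0.519 and 0.214 FPKM in WT to between 1.40 and 2.11 (log2 difference 1.01; limma, adjusted p = 0.00734).

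The 4 ID genes summed to 342.2 and 367.9 FPKM in the WT libraries and to between 647.3 and 826.6 in the knockout libraries. Within the sum ID1 kept 63.6% to 71.9% in all 6 libraries, with no separation of the groups. ID4 took 2.76% in WT against 5.04% and 4.92% in the knockout libraries of the first table, and 5.38% against 9.73% and 10.9% in the second. The share of ID2 was 15.5% in WT against 11.9% and 11.4% in the first table, and 17.8% against 13.4% and 14.0% in the second. No test was run on these shares.

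To show the control regions of genes that moved in opposite directions, the promoter windows of BMP4, ID1 and ID3 are printed here with that of BAMBI, which was not called. The windows run from 250 bases before to 50 bases after a transcription start and come from RefSeq on GRCh38.p14, and 8 of the 10 genes matched, with 10 windows (BMP2 and BMP7 had no entry). Capitals mark GGCGCC, a motif bound by SMADs in BMP-responsive promoters, and GTCTG or its complement CAGAC, a form of the SMAD-binding element. The windows are chr14:53955001-53955300 on the minus strand for BMP4 at its start furthest upstream, chr20:31605039-31605338 on the plus strand for ID1, chr1:23559452-23559751 on the minus strand for ID3 and chr10:28677271-28677570 on the plus strand for BAMBI.
BMP4: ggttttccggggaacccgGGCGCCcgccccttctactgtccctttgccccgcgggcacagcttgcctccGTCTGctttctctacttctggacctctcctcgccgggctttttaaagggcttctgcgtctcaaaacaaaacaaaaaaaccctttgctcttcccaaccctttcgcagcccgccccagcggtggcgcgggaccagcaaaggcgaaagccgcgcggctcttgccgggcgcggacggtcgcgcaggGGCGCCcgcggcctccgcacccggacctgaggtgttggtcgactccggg
ID1: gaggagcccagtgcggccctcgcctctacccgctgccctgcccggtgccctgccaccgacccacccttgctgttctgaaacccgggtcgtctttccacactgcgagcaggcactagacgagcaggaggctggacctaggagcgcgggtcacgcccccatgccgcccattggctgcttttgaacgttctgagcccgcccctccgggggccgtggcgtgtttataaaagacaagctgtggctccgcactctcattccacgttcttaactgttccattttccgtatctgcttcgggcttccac
ID3: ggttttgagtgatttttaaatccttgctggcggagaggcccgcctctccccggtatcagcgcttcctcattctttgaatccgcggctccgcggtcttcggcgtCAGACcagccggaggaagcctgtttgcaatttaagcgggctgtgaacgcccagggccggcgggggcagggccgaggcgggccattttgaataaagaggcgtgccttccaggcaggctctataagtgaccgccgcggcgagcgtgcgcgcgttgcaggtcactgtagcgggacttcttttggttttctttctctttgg
BAMBI: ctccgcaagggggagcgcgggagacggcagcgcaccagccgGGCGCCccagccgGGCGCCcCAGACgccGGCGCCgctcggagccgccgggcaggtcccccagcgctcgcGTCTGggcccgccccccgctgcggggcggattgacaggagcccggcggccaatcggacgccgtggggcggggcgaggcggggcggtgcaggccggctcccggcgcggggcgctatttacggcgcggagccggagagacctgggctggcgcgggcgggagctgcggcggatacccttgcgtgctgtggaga
GGCGCC was found in 2 of the 10 windows, those of BMP4 and BAMBI printed above, and in 19.2% of the 35116 promoter windows of that length. GTCTG on either strand was found in 6 of 10 against 45.3% of all windows. BMP4 had several of these windows and each held it, as did those of BAMBI, ID3 and ID4. CAGGTG on either strand, the E-box that SNAI1 is known to bind, was in 0 of the 10 windows and in 20.6% of all. The study reports from chromatin immunoprecipitation that the SNAI1 protein could bind the promoter of BMP2, a gene with no window here. The 300 bases of ID1 held none of these exact sequences, and shorter or variant forms were not searched. The matches describe letters in short windows and not sites of binding.

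MSX2, a homeobox repressor induced by BMPs, rose by about as much as ID2. It was 33.6 FPKM (WT), 51.7 (SNAI1_KO_1) and 47.8 (SNAI1_KO_2) among the libraries of the first table and 46.5, 58.2 and 67.4 among those of the second. All knockout libraries exceeded both WT libraries, the closest pair being 47.8 and 46.5. The log2 difference was 0.49 ± 0.083 (SE; limma, adjusted p = 0.0106), and it lost its call without either WT library (limma, adjusted p = 0.102 and 0.0648) and without the block (limma, adjusted p = 0.277).

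MSX1, its paralog, gave values that overlapped between the groups. It was 12.05 FPKM in WT of the first table, beside 24.5 for SNAI1_KO_1 and 23.97 for SNAI1_KO_2, and 26.5 in that of the second, beside 19.8 and 37.9. The SNAI1_KO_1 library of the second table was below its WT library and the other 3 knockout libraries were above theirs. The log2 difference of 0.50 ± 0.269 (SE; 95% interval -0.18 to 1.18) did not pass (limma, adjusted p = 0.215). Without that SNAI1_KO_1 library it was 0.79 and passed (limma, adjusted p = 0.0266).

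BAMBI, a membrane protein that resembles a type I receptor without a kinase and dampens BMP and TGF-β signaling, was the response gene with lower values in the knockout groups. Its levels were 156.4 FPKM (WT), 133.7 (SNAI1_KO_1) and 124.9 (SNAI1_KO_2) among the libraries of the first table and 166.6, 138.6 and 157.5 among those of the second. Each knockout library was below the WT library of its table, but the ranges met at 157.5 and 156.4. The log2 difference of -0.22 ± 0.070 (SE; 95% interval -0.40 to -0.05) did not pass (limma, adjusted p = 0.0638). It passed with the knockout groups fitted as one group (limma, adjusted p = 0.0390) and without the SNAI1_KO_2 library of the second table (limma, adjusted p = 0.0329).

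**Figure D3:**
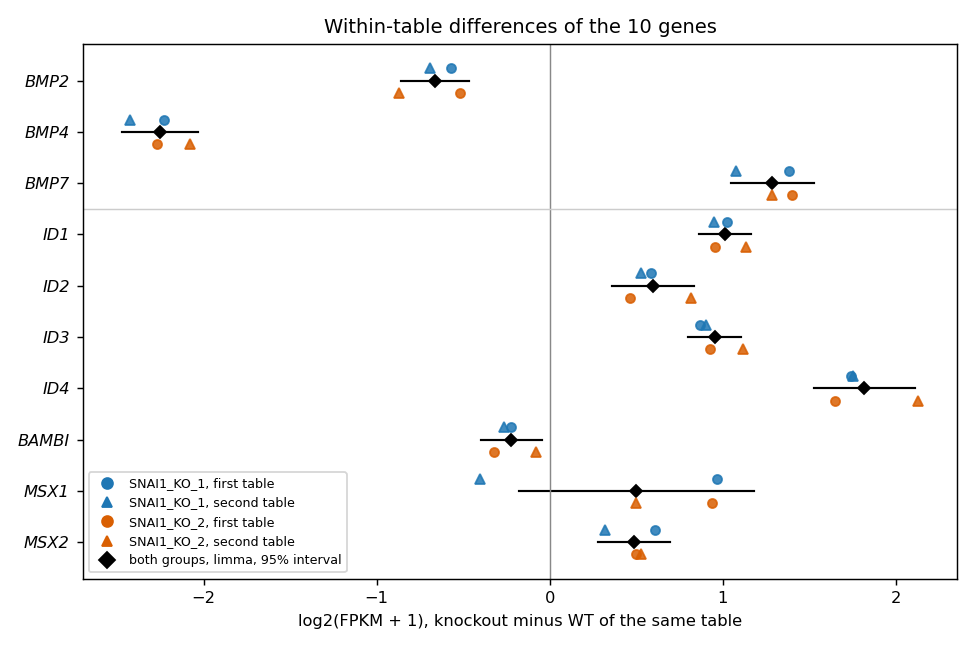
Log2 differences from WT of the 10 BMP genes on the log2(FPKM + 1) scale; circles (first table) and triangles (second table) are the 4 within-table differences, blue for SNAI1_KO_1 and orange for SNAI1_KO_2, and diamonds with bars give the limma difference of both knockout groups with its 95% interval. BMP4 lies at -2.25 and ID4 at 1.82, the intervals of 9 genes exclude 0, and that of MSX1 runs from -0.18 to 1.18.

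Direction was uniform for 9 of the 10 genes. BMP7, the ID genes and MSX2 were above WT in all 4 within-table differences, as were 26.2% of all genes tested. BMP2, BMP4 and BAMBI were below WT in all 4, as were 35.1% of all genes.

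Fitted separately, SNAI1_KO_1 and SNAI1_KO_2 gave calls for the same 8 genes, against 23.9% of all genes tested in SNAI1_KO_1 and 25.5% in SNAI1_KO_2. Both contrasts share the WT libraries. BMP4 had a log2 difference of -2.33 in SNAI1_KO_1 and -2.17 in SNAI1_KO_2 (limma, adjusted p = 0.000408 and 0.000395). For ID4 these were 1.75 and 1.89 (limma, adjusted p = 0.00143 and 0.00104), and for ID2, near the threshold, 0.56 and 0.64 (limma, adjusted p = 0.0210 and 0.0129). Set directly against each other, the knockout groups differed in 0 of the 10 genes and in 0.0% of all genes tested (limma, adjusted p under 0.05), and the smallest adjusted p over all genes was 0.324. At an unadjusted p under 0.05 there were 0 of the 10 genes and 521 of all genes (3.75%). The 95% intervals of the direct difference, SNAI1_KO_2 minus SNAI1_KO_1, ran from -0.10 to 0.41 for BMP4, from -0.20 to 0.48 for ID4 and from -0.35 to 1.22 for MSX1. With 2 libraries a group, differences within those bounds were not excluded.

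By FPKM the order of the 10 genes was led by ID1 in all 6 libraries and closed by BMP7 in all 6. In WT, BMP4, BAMBI and BMP2 held the next places, with BMP4 in place 2 in the first table and place 4 in the second and BMP2 the reverse, so these neighbors did not differ beyond the spread between libraries. In all 4 knockout libraries BAMBI was in place 2 and BMP4 in place 7 or 8. MSX1 was in place 8 in both WT libraries and in place 9 in all 4 knockout libraries.

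The rest of the pathway was read from 66 further genes in lists of ligands, receptors, SMADs, secreted modulators, response genes and E proteins. Of these 43 passed the filter, of which 7 rose, 21 fell and 15 did not pass the test. Over all genes tested 31.3% were called, 15.8% higher and 15.4% lower, and the counts of each list below stand beside those same shares. All 11 other BMP and GDF ligand genes listed were below the filter, and their FPKM summed to between 0.983 and 1.72 per library, so BMP2, BMP4 and BMP7 were the ligand genes with appreciable mRNA among those listed. The count of 28 called genes fell to 15 without the WT library of the second table, 18 without that of the first and 13 without the block.

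**Figure D4:**
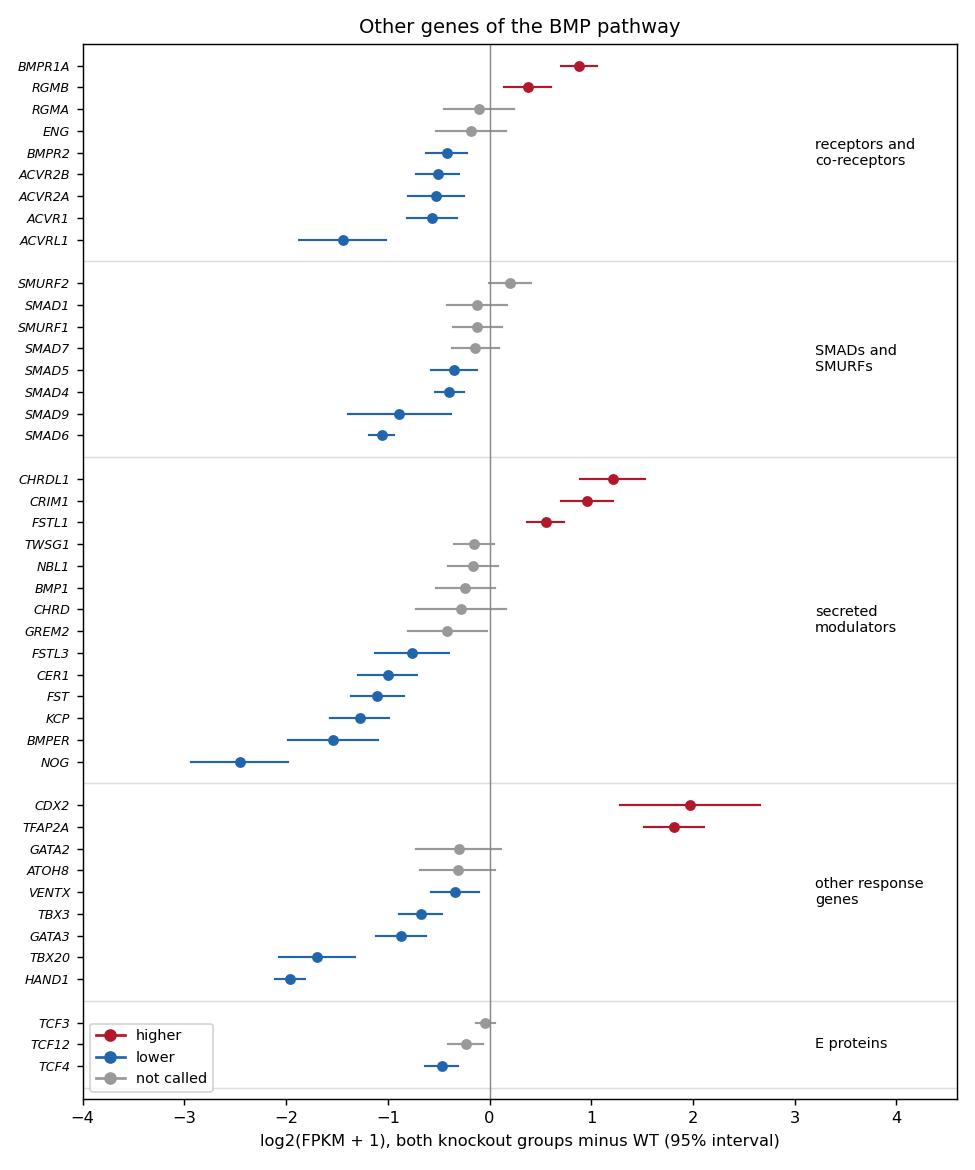
Log2 differences of both knockout groups from WT for the pathway genes outside the set, by list, with 95% intervals; red points are genes called higher, blue points genes called lower and grey points genes not called at an adjusted p under 0.05. NOG at -2.46 and HAND1 at -1.96 lie lowest, and CDX2 at 1.97 and TFAP2A at 1.82 lie highest.

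Among receptors and co-receptors, 2 rose, 5 fell and 2 did not pass of 9 tested, with a median log2 difference of -0.42. BMPR1A, a type I BMP receptor, rose from 23.1 and 19.9 FPKM in WT to between 38.8 and 41.7 (log2 difference 0.88; limma, adjusted p = 0.00108), and the co-receptor RGMB rose by less (0.37; limma, adjusted p = 0.0322). RGMB lost its call whichever library was left out (limma, adjusted p = 0.0514 to 0.200) and without the block (limma, adjusted p = 0.199). ACVR1, another type I receptor, and the type II receptors BMPR2, ACVR2A and ACVR2B fell, with log2 differences between -0.56 and -0.42, and all 4 lost their calls without the block or without either WT library (limma). The calls of BMPR2, ACVR1 and ACVR2A also depended on single knockout libraries, and ACVR2A was not called in SNAI1_KO_2 alone (limma, adjusted p = 0.0546). ACVRL1, a type I receptor best known from endothelium, fell from 2.69 and 2.23 FPKM to between 0.161 and 0.380 (log2 difference -1.44; limma, adjusted p = 0.00336).

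Of the 8 SMAD and SMAD turnover genes, 4 fell and 0 rose. SMAD6, an inhibitory SMAD and itself a BMP target, was 98.3 FPKM in WT of the first table, beside 50.3 for SNAI1_KO_1 and 45.6 for SNAI1_KO_2, and 143.9 in that of the second, beside 70.8 and 63.2. This target moved opposite to the ID genes, with a log2 difference of -1.06 ± 0.049 (SE; limma, adjusted p = 0.000269). The ratio of ID1 to SMAD6, also chosen after the values were seen, was 2.43 and 1.66 in WT and 6.54 to 10.1 in the knockout libraries. SMAD6 was not called without the block (limma, adjusted p = 0.0666). SMAD9, SMAD4 and SMAD5 fell by 0.89, 0.39 and 0.35 on the log2 scale, and none of the 3 was called without the block (limma, adjusted p = 0.0773, 0.143 and 0.227). SMAD5 was called in neither knockout group alone and lost its call whichever library was left out (limma, adjusted p = 0.0547 to 0.245), SMAD9 lost it without either WT library (limma, adjusted p = 0.168 and 0.112) or the SNAI1_KO_1 library of the second table (limma, adjusted p = 0.0703), and SMAD4 without the WT library of the second (limma, adjusted p = 0.0618). SMAD7, the other inhibitory SMAD, had a log2 difference of -0.14 that did not pass (limma, adjusted p = 0.303).

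Secreted modulators numbered 14 tested, of which 3 rose and 6 fell. NOG, which encodes noggin, an antagonist that binds BMP4 and BMP2, was 18.5 FPKM (WT), 3.38 (SNAI1_KO_1) and 2.42 (SNAI1_KO_2) among the libraries of the first table and 27.3, 2.96 and 4.62 among those of the second. All knockout libraries were far below WT, with a log2 difference of -2.46 ± 0.191 (SE; limma, adjusted p = 0.000964). BMP4 and NOG thus both fell, and the ratio of BMP4 to NOG mRNA was 9.77 in WT against 11.2 and 15.2 in the knockout libraries of the first table, and 6.02 against 10.05 and 8.26 in the second. It was above the WT value of its own table in all 4 knockout libraries and was not tested.

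CER1, an antagonist of Nodal and BMPs, was the most abundant modulator and fell from 3262 and 2550 FPKM to between 976.9 and 1797. FST, which encodes the activin-binding follistatin, fell from 70.9 and 66.0 to between 25.6 and 37.9 FPKM, and BMPER from 78.7 and 98.2 to between 22.8 and 34.5. The log2 differences were -1.002 for CER1, -1.10 for FST and -1.54 for BMPER (limma, adjusted p = 0.00314, 0.00172 and 0.00307), and CER1 was not called without the block (limma, adjusted p = 0.107) or without the WT library of the second table (limma, adjusted p = 0.0505). The antagonist CHRDL1 rose from 0.843 and 0.639 FPKM to between 2.83 and 3.19, and CRIM1, a membrane protein that binds BMPs, from 6.51 and 5.89 to between 11.3 and 15.4. Their log2 differences were 1.21 and 0.96 (limma, adjusted p = 0.00237 and 0.00246). FSTL1 also rose, from 154.2 and 161.7 FPKM to between 207.6 and 263.0 (log2 difference 0.55; limma, adjusted p = 0.00482). KCP and FSTL3 fell, with log2 differences of -1.28 and -0.76 (limma, adjusted p = 0.00143 and 0.0147). FSTL1 and FSTL3 were not called without the block (limma, adjusted p = 0.0816 and 0.136).

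Response genes outside the set split, with 2 higher and 5 lower of 9 tested. HAND1, a mesoderm transcription factor, was 241.5 FPKM in WT of the first table, beside 66.4 for SNAI1_KO_1 and 64.3 for SNAI1_KO_2, and 200.9 in that of the second, beside 48.5 and 47.2. Its log2 difference was -1.96 (limma, adjusted p = 0.000143), and TBX20, GATA3, TBX3 and VENTX fell by 1.70, 0.87, 0.68 and 0.34 on the log2 scale. VENTX was called in neither knockout group alone and lost its call whichever library was left out (limma, adjusted p = 0.111 to 0.218), and GATA3 lost its call without the block (limma, adjusted p = 0.234). TFAP2A, a factor of surface ectoderm and amnion, rose from 3.22 and 5.36 FPKM to between 14.3 and 24.1 (log2 difference 1.82; limma, adjusted p = 0.000584). CDX2, a caudal homeobox factor of trophectoderm and posterior mesoderm, rose from 0.822 and 1.60 to between 5.08 and 10.6 FPKM (log2 difference 1.97; limma, adjusted p = 0.00568), a call lost when WT of the first table was left out (limma, adjusted p = 0.0728). So the ID genes, MSX2, TFAP2A and CDX2 were higher while SMAD6, HAND1, TBX20 and GATA3 were lower in the same libraries.

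The E proteins, the binding partners of the ID proteins, were not among the genes called higher. TCF4 fell from 99.3 and 79.8 FPKM to between 51.6 and 83.9 (log2 difference -0.47; limma, adjusted p = 0.00521), a call lost without the block (limma, adjusted p = 0.310) and without the WT library of the second table (limma, adjusted p = 0.0587). TCF12 had a log2 difference of -0.24 and TCF3 one of -0.04, and neither passed (limma, adjusted p = 0.0513 for TCF12). TCF3 was 154.2 to 162.0 FPKM in the first table and 382.0 to 392.4 in the second, a gap between tables far larger than any gap between groups.

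Markers of cell types also moved in these libraries. Of 6 mesoderm markers, 4 fell (EOMES, MESP1, APLNR and PDGFRA), MIXL1 did not pass and T (brachyury) rose by 2.72 on the log2 scale; the list summed to 1344 and 1367 FPKM in WT and 988.4 to 1084 in the knockout libraries. All 3 epithelial markers rose, with sums of 44.6 and 49.6 in WT against 210.9 to 239.0, and of 3 pluripotency markers POU5F1 and NANOG rose, with sums of 491.7 and 637.9 against 695.1 to 1036. Among 3 endoderm markers SOX17 rose and FOXA2 and CXCR4 fell, with sums of 77.8 and 277.8 FPKM in WT against 126.1 to 351.7. SOX17 and FOXA2 lost their calls without the block (limma, adjusted p = 0.728 and 0.658). So did MESP1, PDGFRA and POU5F1 (limma, adjusted p = 0.104, 0.113 and 0.243).

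Of 8 amnion and trophoblast markers, 3 passed the filter and IGFBP3 and GABRP rose, while TFAP2C had a log2 difference of -0.015 (limma, adjusted p = 0.949). GABRP was not called without the block (limma, adjusted p = 0.0506). The list summed to 10.6 and 14.7 FPKM in WT against 33.6 to 37.4 in the knockout libraries, where IGFBP3 alone was 20.8 to 25.0 FPKM. ISL1, below the filter, was 1.81 and 1.04 FPKM in WT and lower in all 4 knockout libraries, at 0.187 to 0.597. KRT7, also below the filter, was 0.334 FPKM in each WT library and higher in all 4 knockout libraries, at 0.832 to 1.18. The defining trophoblast genes CGA and CGB5 were at or near 0 and VTCN1 did not exceed 0.124 FPKM. Of 5 neural crest and ectoderm markers only SOX10 passed the filter, with list sums between 2.20 and 6.16 FPKM in all libraries. SOX10 rose by 0.70 on the log2 scale (limma, adjusted p = 0.0359), but was not called in SNAI1_KO_2 alone (limma, adjusted p = 0.0952), and its adjusted p reached 0.219 in limma without the WT library of the second table. PAX6, below the filter, was 1.28 and 2.38 FPKM in WT and 0.0242 to 0.184 in the knockout libraries. FOXD3, also below the filter, went the other way, from 0.0231 and 0.0823 FPKM in WT to between 0.168 and 0.864. Of 6 endothelial and blood markers KDR fell, a call lost without the block (limma, adjusted p = 0.0651). RUNX1, with a log2 difference of 0.45, did not pass (limma, adjusted p = 0.0919). The list summed to 57.6 and 67.3 FPKM in WT against 41.6 to 47.5, and PTPRC was at 0 in all 6 libraries. The part of these marker changes in the BMP ligand and ID results was not tested.

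For each of the 10 genes the tested genes with the most similar pattern were sought by Euclidean distance over the 4 within-table log2 differences. BMP2 lay nearest to NKIRAS1 (distance 0.060) and then to EOMES (0.116), the mesoderm and endoderm factor. ID1 lay nearest to STARD4 (0.051) and then to ID2-AS1 (0.069), and ID3 nearest to TRIM56 (0.060). The log2(FPKM + 1) scale used for these distances understates changes of low genes, so nearness is not an equal fold change. By FPKM, ID2-AS1 stood at 3.51 to 7.87 times the WT level of its table and ID1 at 1.94 to 2.20 times. BMP7 was closest to HBEGF (0.073), ID4 to AXL (0.112), ID2 to ARVCF (0.106), BAMBI to SNX18 (0.052) and MSX2 to ARPC5 (0.044). BMP4 and MSX1 had no near neighbor of that kind, their closest genes being AL138900.3 (0.184) and SLC10A7 (0.454). Each table shares 1 WT library between its differences, so the distances are a description.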

How the data were processed

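Per the labels, total RNA (2 ug) of each of 6 samples was made into libraries with an Illumina TruSeq RNA Sample Prep kit, which does not mark strand. The submitters' processing notes name BWA, Bowtie, RSEM and hg19, without versions, and the gene annotation and strand setting are not given in the sources used here. The authors deposited FPKM values per gene symbol in 2 tables with 1 library of each group in each, and a heading row inside the second names the unit. Their columns give WT, SNAI1_1 or SNAI1_2 and no replicate number. They were read as the groups whose titles begin so. If the tables stood for lines and the columns for replicates, the split into SNAI1_KO_1 and SNAI1_KO_2 would change, but the comparison of knockouts with WT within a table would not.

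Symbols listed once in both tables (37803) were kept, which left out 94 repeated symbols of the first table and 340 of the second. Those averaging 1 FPKM or more (13909) were tested on log2(FPKM + 1), a scale that understates changes of low genes, with limma 3.58.1 in R 4.3.3, a mean for each group, the table as a block and a mean-variance trend. The residual degrees of freedom were 2 and the prior ones 3.34. Two-sided p-values were adjusted over the whole table by Benjamini-Hochberg and called under 0.05. FPKM values are not counts, so no count model was used, depth is known only relative to WT within a table, and no counting interval is given. The pairing comes from the shared tables, whose differences correlated between groups with r = 0.616, 0.666 and 0.676 over the genes tested (genes are not independent replicates).

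The members and the lists of pathway and marker genes were chosen with earlier results of these data known. All 10 members are named with their values, together with called pathway genes from the fixed lists and the nearest patterns by distance. Overlapping genes were taken from GENCODE and promoter windows from RefSeq. The alternatives were another normalization, other filters and pseudocounts, fits without the block or the trend, the knockout groups as one group, a minimum change and leaving out each library.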

Additional observations from a re-analysis of the deposited data

How the results depend on the processing

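Of the 8 BMP genes called for both knockout groups against WT, 3 were called with no replicate block (BMP4, ID1 and ID3) and 4 when a log2 difference of at least 1 was also required (BMP4, BMP7, ID1 and ID4). The count ran from 6 to 9 when single libraries were left out. Over all genes tested the share called was 31.3%, and it became 7.66% with no block, 7.07% with no filter and 12.4% to 20.4% with a library left out. These shares are for both knockout groups together. For SNAI1_KO_1 alone the count of BMP genes called was 3 with no block and 5 with no filter on low values. For SNAI1_KO_2 alone the count was also 3 and 5. Both counts also changed when single libraries were left out. Over all genes the share called for each single group was also lower with no block and with no filter than in its main fit. The main shares were 23.9% for SNAI1_KO_1 and 25.5% for SNAI1_KO_2. No share over all genes was computed for the minimum change, so the counts under it stand without a background. Without the filter ID2 and MSX2 lost their calls for both groups together (limma, adjusted p = 0.0732 and 0.0724). Between the knockout groups the count was 0 throughout. The 28 called genes of the rest of the pathway became 13 with no block, 17 with no filter, 12 under the same minimum change and 15 to 23 with a library left out. The block removes differences between tables, and the unfiltered fit both tests more genes and fits its mean-variance trend over them. The cause of the changes in these counts was not tested.

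No called difference changed sign under the alternatives run. Uncalled ones did, with TCF3 at 0.005 and TFAP2C at 0.027 on the log2 scale under median-ratio scaling. With a library left out, the log2 difference ran from -0.28 to 0.082 for RGMA, -0.33 to 0.086 for SMAD1, -0.26 to 0.014 for SMURF1 and -0.16 to 0.13 for TFAP2C, and from -0.29 to 0.86 for MSX1 in SNAI1_KO_1. For SNAI1_KO_2 minus SNAI1_KO_1 it ran from -0.21 to 0.084 for BMP2, -0.011 to 0.235 for BMP7, -0.051 to 0.164 for ID1, -0.10 to 0.27 for ID2, -0.093 to 0.378 for ID4, -0.089 to 0.173 for BAMBI, -0.14 to 1.01 for MSX1 and -0.10 to 0.20 for MSX2.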
